A study of Mus musculus with 12 samples.

Results

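The NAD consumption and salvage genes are a set of 10 named genes of nicotinamide adenine dinucleotide (NAD) metabolism: Cd38, Bst1, Nampt, Nmnat1, Nmnat3, Nadk, Sirt1, Parp1, Parp14 and Qprt. They were taken by gene symbol, and 9 of the 10 had a row among the 12441 genes of the deposited tables; Qprt had none and was not analysed here. RNA was sequenced from mouse bone marrow-derived macrophages in 12 libraries, in 4 groups of 3: homozygous COQ6 D316Y cells after 24 h with 100 ng/mL lipopolysaccharide (LPS), wild-type (WT) cells after the same LPS treatment, D316Y cells without stimulation and WT cells without stimulation. COQ6 is a mitochondrial monooxygenase of coenzyme Q synthesis, and D316Y is a missense change in it. All 4 groups were grown from bone marrow depleted of red blood cells for 6 days in medium holding 10% L929-conditioned medium, which supplies the growth factor that turns marrow cells into macrophages. The labels used here give no strain, age, sex or number of animals. Nothing says that replicates were separate cultures, so the p-values refer to the spread among these libraries, which may be technical.

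NAD carries electrons in metabolism and is also broken down as a substrate. CD38 and BST1 (CD157) are cell surface enzymes that cleave NAD to nicotinamide and ADP-ribose or cyclic ADP-ribose, sirtuins use NAD to remove acyl groups from proteins, and poly(ADP-ribose) polymerases (PARPs) transfer its ADP-ribose. The nicotinamide set free is salvaged by NAMPT, which makes nicotinamide mononucleotide, and the NMNAT enzymes turn that into NAD. NADK phosphorylates NAD to NADP, and QPRT makes NAD precursor from quinolinate. In macrophages activated through Toll-like receptor 4, which binds LPS, CD38 is known as a major NAD-consuming enzyme.

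The 250 bases before the RefSeq start site (GRCm38.p6) are shown, 5′ to 3′, for the salvage gene Nampt, which rose with LPS, and for Parp1, the gene that fell. Capitals mark the GC box-type motif GGGCGG, read on both strands.
Nampt (chr12:32820085-32820334, plus strand): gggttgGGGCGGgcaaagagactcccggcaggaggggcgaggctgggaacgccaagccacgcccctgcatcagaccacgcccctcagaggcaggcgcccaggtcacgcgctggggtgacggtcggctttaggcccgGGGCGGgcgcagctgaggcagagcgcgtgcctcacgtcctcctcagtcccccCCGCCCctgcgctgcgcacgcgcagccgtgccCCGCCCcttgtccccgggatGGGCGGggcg
Parp1 (chr1:180568641-180568890, plus strand): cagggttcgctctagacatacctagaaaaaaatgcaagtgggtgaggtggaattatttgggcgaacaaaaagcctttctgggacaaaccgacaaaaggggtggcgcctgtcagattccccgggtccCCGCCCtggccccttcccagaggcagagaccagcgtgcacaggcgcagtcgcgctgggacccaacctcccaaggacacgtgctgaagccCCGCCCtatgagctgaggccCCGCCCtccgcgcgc
RefSeq and GENCODE place gene starts differently. The RefSeq start of Nampt lies 790 bases inside the GENCODE gene, at the start of 1 of its transcripts, and its window holds no GENCODE exon of Nampt; that of Parp1 lies 33 bases before the GENCODE gene. The Nampt window was 75.6% G and C with 27 CpG, and 91.4% of the 32851 windows of that length held fewer CpG. The Parp1 window was 61.6% G and C with 16 CpG (74.6% of windows held fewer). GGGCGG stood at 5 places in the Nampt window and at 3 in the Parp1 window, and 32.7% of all windows held at least 1 copy. It also stood at 6 places in the window of Sirt1, which did not pass with LPS on the deposited scale. That window held 39 CpG (98.4% of windows held fewer). Nmnat3 had 2 copies, the windows of Nmnat1 and Nadk at most 1, and Cd38 and Qprt 0. A match is a description of letters and not a binding site. For Cd38 the RefSeq start lies 256 bases inside the GENCODE gene and all 250 bases before it are exonic there, so that window is not shown.

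RefSeq windows were at hand for 8 of the 10 genes, all but Bst1 and Parp14, and 5 further motifs were searched on both strands. An NF-kB-type motif, GGG and TTCC with 3 bases between, matched in Sirt1 only, whose window lies wholly inside the GENCODE gene, ending 42669 bases from its start, and a gamma-activated site-type motif, TTCNNNGAA, in Qprt only. These motifs occur in 4.65% and 7.02% of all windows. The RefSeq start of Sirt1 is the start of 1 of its GENCODE transcripts. That of Nmnat3 lies 9135 bases inside the GENCODE gene, where no GENCODE transcript of Nmnat3 starts. The interferon-stimulated response element-type motif, GAAA and GAAA with 2 bases between (2.98% of windows), the AP-1-type motif TGANTCA (6.75%) and the TATA box-type motif TATAAA (12.4%) matched in none of the 8 genes. No match says only that these letters were not in these 250 bases. For Cd38 all 250 are exonic in GENCODE. Of the windows of Nadk, 1 lies wholly inside its GENCODE gene and holds 115 exonic bases.

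The tables held between 32.8 and 47.2 M reads per library. All 7 macrophage markers searched had rows, with a summed level of 53485 to 69174 CPM (reads per M of effective library) in the LPS libraries, against 31910 to 38255 CPM in the unstimulated ones. Lyz2 weighed most in these sums. With LPS its mean was 15.6 log2 CPM in D316Y and 15.8 in WT, against 11.7 and 12.1 for Adgre1, the next. In both genotypes Adgre1, Fcgr1, Itgam and Lyz2 passed as higher with LPS and Cd68 as lower, while Csf1r and Mertk passed in neither. The 4 of 8 neutrophil markers with rows summed to 41.5 to 51.1 CPM in D316Y with LPS, against 11.9 to 28.0 CPM without, and to 30.0 to 55.1 CPM in WT with LPS, against 5.39 to 16.1 CPM without; S100a8 and Camp passed as higher and Ngp as lower in both, and S100a9 passed in neither. Most markers of B, T and NK, dendritic and stromal cells had no row, and all 3 of erythroid cells had none. Of those with rows, none of these lists summed above 11.4 CPM in any library; Cd79b and Pecam1 passed as higher and Cd4 as lower with LPS in both genotypes, and Xcr1 as higher in D316Y (1.65, limma adjusted p 0.0266; WT 1.41, limma adjusted p 0.0536). The part of such cells in the LPS results was not tested. Coq6 itself passed in no comparison, which does not check the labels, since a missense change need not alter RNA level. Mitochondrial genes took 0.658% to 1.10% of reads in the 6 LPS libraries. Replicate 1 of each unstimulated group differed from the other unstimulated libraries, with 0.949% in D316Y and 0.449% in WT, against 1.97% to 2.97% in the other 4, so apart from replicate 1 this share was lower with LPS; its part in the LPS results was not tested. Results that rest on them are given with and without them. The authors' scaling also matters: their effective library sizes were 0.826 to 0.922 of the reads in the LPS libraries and 1.19 to 1.32 of the reads in the unstimulated ones, where the ferritin gene Fth1 took less of the reads. Scaled by total reads alone, the median of all genes with LPS was -0.54 in D316Y and -0.51 in WT on the log2 scale, against -0.03 and -0.01 as deposited. Changes of the size of that shift therefore depend on the scaling, and the text says where for the NAD genes. The LPS differences of the marker genes and of the neighbours of Cd38 are given on the deposited scale only.

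The question asked of LPS was how the NAD genes respond within each genotype. With LPS 6 of the 9 genes rose and 1 fell in D316Y macrophages, and 5 rose and 1 fell in WT macrophages (limma, adjusted p under 0.05). Of all genes tested, 38.4% passed in D316Y (19.4% higher, 19% lower) and 37.1% in WT (18.1% higher, 19% lower). The same 6 genes passed in both genotypes with the same sign: Cd38, Bst1, Nampt, Nmnat1 and Parp14 rose, and Parp1 fell. At an unadjusted p under 0.05 there were 8 genes in each genotype (46.5% and 45.7% of all genes), and the LPS and unstimulated libraries did not overlap for 8 genes in D316Y and 7 in WT (52.8% and 46.8% of all genes). Nadk passed in D316Y only, and Nmnat3 and Sirt1 passed in neither. With total reads as the scale, 3 genes rose (Cd38, Bst1 and Nampt) and 3 fell (Nmnat3, Sirt1 and Parp1) in each genotype, where 8.98% of all genes passed as higher and 49.7% as lower in D316Y and 7.97% and 50.4% in WT. In bulk RNA, more cells that express a gene and more RNA per cell cannot be told apart.

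**Figure D1:**
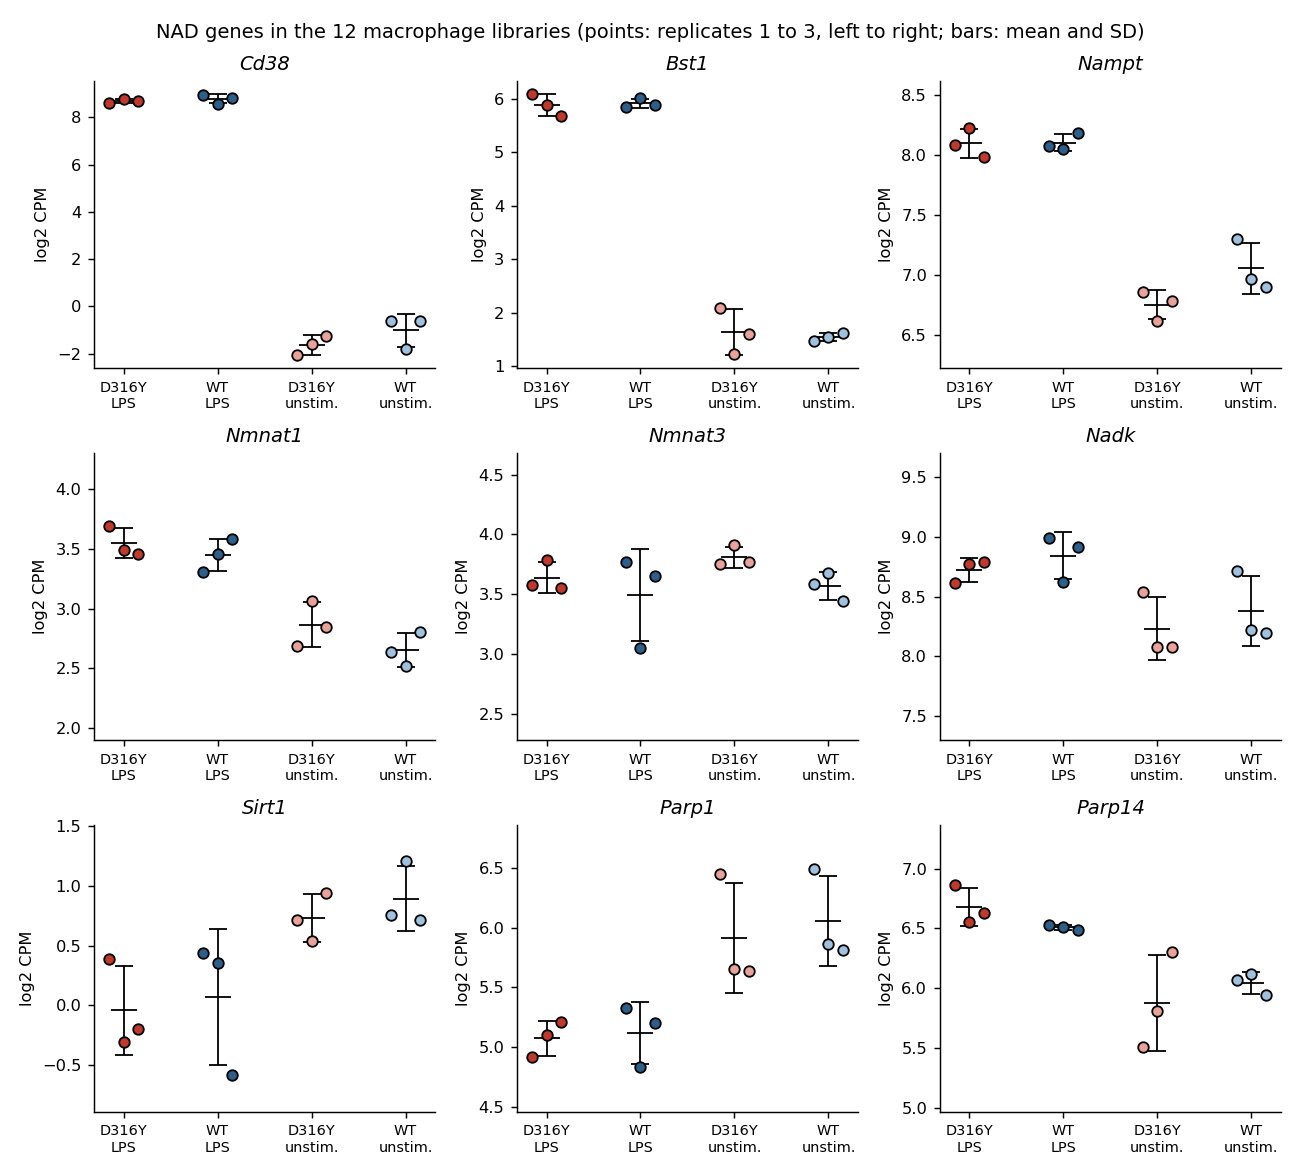
Level of each of the 9 NAD genes in log2 CPM, with a point for each library (replicates 1 to 3, left to right) and bars for the mean and SD of a group (n = 3). Cd38 sits between 8.57 and 8.96 in the 6 LPS libraries and between -2.06 and -0.61 in the 6 unstimulated libraries, while Nmnat3 lies within 3.05 to 3.91 in all 12.

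Cd38 (ENSMUSG00000029084, chromosome 5 at 43868553 to 43912375 of GRCm38, plus strand, protein-coding) encodes the main NAD glycohydrolase of the set. In D316Y it had 8.59, 8.79 and 8.70 log2 CPM with LPS, against -2.06, -1.58 and -1.25 without. In WT it had 8.96, 8.57 and 8.82 log2 CPM with LPS, against -0.61, -1.81 and -0.64 without. The LPS libraries drew 13538 to 21428 Cd38 reads each and the unstimulated libraries 12 to 36, so the few reads at rest limit the precision of the fold. The difference was 10.32 on the log2 scale in D316Y (SE 0.29, limma adjusted p 1.65e-11), or 1281-fold with a 95% interval of 837 to 1962. In WT it was 9.80 (SE 0.29, limma adjusted p 3.07e-11), or 893-fold with an interval of 583 to 1368. Ranked by rise, Cd38 stood 5 among the 11795 genes tested in D316Y and 6 among the 11663 tested in WT.

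Bst1 (ENSMUSG00000029082), a paralog of Cd38, lies beside it on chromosome 5 at 43818885 to 43843986, with 24566 bases between the genes. Its levels in D316Y were 6.09, 5.89 and 5.68 log2 CPM with LPS, against 2.08, 1.23 and 1.60 without. In WT they were 5.86, 6.01 and 5.89 with LPS, against 1.47, 1.54 and 1.62 without. No LPS library overlapped an unstimulated one. The rise was 19.1-fold in D316Y (log2 difference 4.26, SE 0.19, limma adjusted p 2.35e-09) and 20.8-fold in WT (4.38, SE 0.19, limma adjusted p 1.84e-09). Of the other genes in the tables within 500 kb, Fbxl5, an iron-sensing ubiquitin ligase subunit on the opposite strand, rose by 1.09 in D316Y and 0.96 in WT on the log2 scale (limma adjusted p 2.20e-05 and 7.20e-05). Tapt1 gave 0.58 and 0.32 and did not pass (limma adjusted p 0.113 and 0.396). Gm5292 gave -0.08 in D316Y and did not pass (limma adjusted p 0.867), and it was too low to be tested in WT. Bst1 and Fbxl5 share 98 exonic bases, and the sources used here do not say whether reads were counted by strand, so reads there cannot be assigned to either gene.

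Nampt (ENSMUSG00000020572, chromosome 12 at 32819545 to 32853349), the rate-limiting enzyme of nicotinamide salvage, was already abundant at rest. In D316Y it had 8.09, 8.22 and 7.98 log2 CPM with LPS, against 6.85, 6.61 and 6.78 without. WT libraries had 8.08, 8.05 and 8.18 with LPS, against 7.30, 6.97 and 6.90 without. All LPS libraries lay above all unstimulated ones. Nampt rose 2.55-fold in D316Y (log2 difference 1.35, SE 0.14, limma adjusted p 5.74e-06) and 2.07-fold in WT (1.05, SE 0.14, limma adjusted p 5.88e-05). Cd38, Bst1 and Nampt kept their calls in both genotypes under every alternative run. The Nampt difference scaled by total reads was 0.83 in D316Y and 0.54 in WT.

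The enzymes that make NAD from nicotinamide mononucleotide differed. Nmnat1 (ENSMUSG00000028992, chromosome 4 at 149467572 to 149485202, minus strand), the nuclear enzyme, had 3.69, 3.49 and 3.46 log2 CPM in D316Y with LPS, against 2.68, 3.06 and 2.85 without. In WT it had 3.31, 3.46 and 3.58 with LPS, against 2.64, 2.52 and 2.80 without. Every LPS library was higher, and Nmnat1 rose by 0.68 in D316Y (SE 0.15, limma adjusted p 0.00307) and by 0.80 in WT (SE 0.15, limma adjusted p 0.00111) on the log2 scale. These became 0.17 and 0.29 under total reads scaling and did not pass (limma adjusted p 0.368 and 0.134). Nmnat3 (ENSMUSG00000032456, chromosome 9 at 98287435 to 98420438), the mitochondrial enzyme, had 3.58, 3.79 and 3.55 log2 CPM in D316Y with LPS, against 3.75, 3.91 and 3.77 without. WT libraries had 3.77, 3.05 and 3.65 with LPS, against 3.58, 3.67 and 3.44 without. The groups overlapped in each genotype, and the differences of -0.17 in D316Y (95% interval -0.55 to 0.21) and -0.07 in WT (-0.46 to 0.31) did not pass (limma adjusted p 0.480 and 0.776). Under total reads scaling Nmnat3 fell by 0.69 and 0.58 and passed (limma adjusted p at most 0.0233).

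Nadk (ENSMUSG00000029063, chromosome 4 at 155562378 to 155591001), the cytosolic NAD kinase, had 8.61, 8.77 and 8.79 log2 CPM in D316Y with LPS, against 8.54, 8.08 and 8.08 without. In WT it had 8.99, 8.62 and 8.91 with LPS, against 8.72, 8.22 and 8.20 without. The replicate 1 libraries were the highest of the unstimulated ones in each genotype. The difference was 0.49 in D316Y (SE 0.18, limma adjusted p 0.0486) and 0.46 in WT (SE 0.18, limma adjusted p 0.0642), on either side of the threshold but of like size. Their difference, tested as an interaction, was 0.03 (95% interval -0.53 to 0.59, limma adjusted p 0.999). Without both unstimulated replicate 1 libraries it was 0.65 in D316Y and 0.63 in WT, and both passed (limma adjusted p 0.000990 and 0.00119). In D316Y the call was lost without LPS replicate 1, 2 or 3 or unstimulated replicate 2 or 3 (limma adjusted p 0.0733 to 0.152). In WT it was gained without LPS replicate 2 or unstimulated replicate 1 (limma adjusted p 0.0490 and 0.0111). The values under total reads scaling were -0.0215 and -0.045, so the direction of Nadk rests on the scaling.

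**Figure D2:**
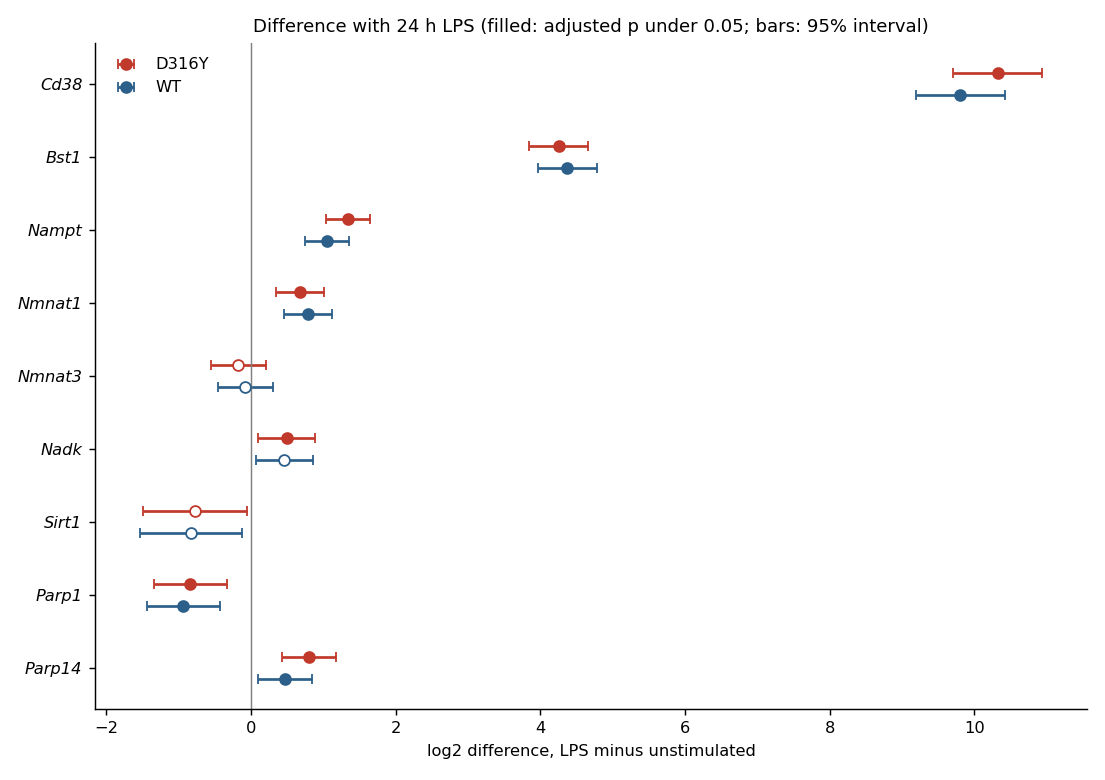
Log2 difference with LPS (LPS minus unstimulated) of each NAD gene in D316Y and WT, with 95% intervals from limma; filled points passed an adjusted p of 0.05. Cd38 and Bst1 stand at 10.32 and 4.26 in D316Y and at 9.80 and 4.38 in WT, the other 7 genes lie between -0.93 and 1.35, and the intervals of the genotypes overlap for every gene.

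Among the enzymes that use NAD inside the cell, Parp1 (ENSMUSG00000026496, chromosome 1 at 180568924 to 180601254), the DNA damage-activated polymerase, was the gene that fell. It had 4.91, 5.10 and 5.21 log2 CPM in D316Y with LPS, against 6.45, 5.65 and 5.64 without. WT levels were 5.33, 4.83 and 5.20 with LPS, against 6.49, 5.86 and 5.82 without. The unstimulated replicate 1 libraries were again the highest, but no groups overlapped within a genotype. Parp1 fell by 0.84 on the log2 scale in D316Y (SE 0.23, limma adjusted p 0.0115) and by 0.93 in WT (SE 0.23, limma adjusted p 0.00643). Scaled by total reads Parp1 fell by 1.35 in D316Y and by 1.44 in WT. Without both unstimulated replicate 1 libraries it fell by 0.57 and 0.72 (limma adjusted p 0.00661 and 0.00145), and without D316Y LPS replicate 1 the D316Y value was -0.76 with a limma adjusted p of 0.0501.

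Parp14 (ENSMUSG00000034422, chromosome 16 at 35832874 to 35871544, minus strand), an interferon-inducible mono-ADP-ribosyltransferase, had 6.86, 6.55 and 6.62 log2 CPM in D316Y with LPS, against 5.51, 5.81 and 6.30 without. In WT it had 6.53, 6.51 and 6.49 with LPS, against 6.06, 6.12 and 5.94 without. All LPS libraries were higher, by 0.80 in D316Y (SE 0.17, limma adjusted p 0.00219) and by 0.47 in WT (SE 0.17, limma adjusted p 0.0478). The WT call was lost without any 1 of the 6 WT libraries (limma adjusted p 0.0673 to 0.135). Under total reads scaling the values were 0.29 and -0.0404 and did not pass (limma adjusted p 0.185 and 0.861). A list of 10 interferon-stimulated genes was also higher with LPS on the deposited scale. The summed level was 6698 to 9642 CPM in D316Y with LPS, against 842 to 1762 CPM without. In WT it was 7113 to 8606 CPM with LPS, against 1641 to 3129 CPM without. With LPS Irf7 weighed most in these sums, at a mean of 11.9 log2 CPM in D316Y and 11.7 in WT. All 10 passed as higher in D316Y, and 9 of the 10 in WT, where 19.4% and 18.1% of all genes did. The part of this list in the Parp14 result was not tested.

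Sirt1 (ENSMUSG00000020063, chromosome 10 at 63319005 to 63381704, minus strand), a nuclear NAD-dependent deacetylase, was the least abundant of these enzymes, with 27 to 109 reads per library. It had 0.38, -0.31 and -0.19 log2 CPM in D316Y with LPS, against 0.71, 0.54 and 0.94 without. WT levels were 0.44, 0.35 and -0.58 with LPS, against 0.76, 1.21 and 0.71 without. Every LPS library lay below every unstimulated one in its genotype, but the differences of -0.77 in D316Y (95% interval -1.48 to -0.06) and -0.82 in WT (-1.53 to -0.12) did not pass (limma adjusted p 0.0836 and 0.0649). In WT Sirt1 passed without LPS replicate 1 (-1.01, limma adjusted p 0.0465). Scaled by total reads it fell by 1.29 and 1.33 and passed (limma adjusted p 0.00543 and 0.00412). It shares 65 exonic bases with Gm16145 on the opposite strand.

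Levels of different genes were set side by side as CPM per kb of exon, since their exonic lengths run from 3037 to 9306 bases. With LPS the order was the same in both genotypes: Nadk, Cd38, Nampt, Bst1, Parp14, Parp1, Nmnat1, Nmnat3 and Sirt1. Nadk averaged 113 ± 7.64 CPM per kb in D316Y and 123 ± 16.0 in WT (SD, n = 3 each), and Cd38 106 ± 7.28 in D316Y and 114 ± 15.3 in WT. These neighbours in the order overlapped between libraries and the others did not. At rest the order was Nadk, Nampt, Parp1, Parp14, Nmnat3, Nmnat1, Bst1, Sirt1 and Cd38 in both genotypes, with Nmnat3 and Nmnat1 overlapping. Cd38 was then last, at 0.0852 ± 0.0232 CPM per kb in D316Y and 0.136 ± 0.0541 in WT (SD, n = 3 each). Bst1 stood at 18.0 CPM per kb in D316Y and 18.3 in WT with LPS, against 0.963 in D316Y and 0.880 in WT without.

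**Figure D3:**
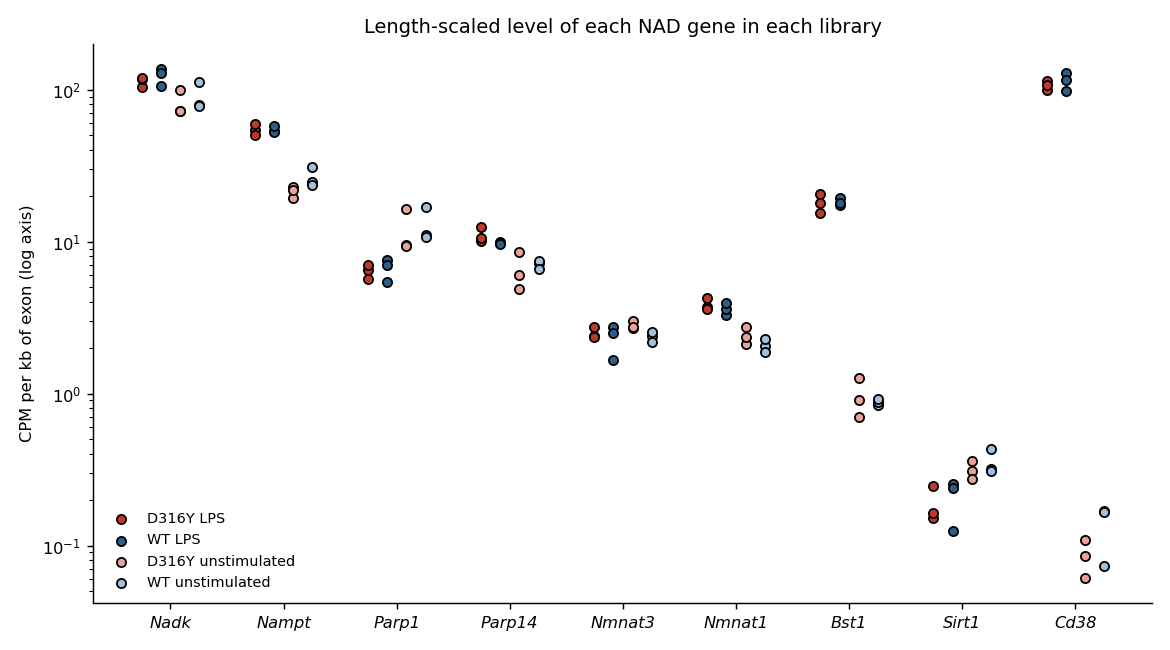
Length-scaled level of each NAD gene (CPM per kb of exon, log axis), with a point for each of the 12 libraries, and genes in the order of their level in unstimulated WT. Cd38 lies at 97.4 to 128 CPM per kb in the LPS libraries and at 0.0616 to 0.168 in the unstimulated libraries, and Nadk at 72.2 to 136 in all 12.

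The genotype comparison asked whether the NAD genes differ between D316Y and WT macrophages. None of them passed. Without stimulation 0 of the 8 genes tested passed (limma), with 0 at an unadjusted p under 0.05, while 0.00868% of all genes passed and 2.92% reached that unadjusted level. With LPS 0 of 9 passed (limma), with 0 at an unadjusted p under 0.05; of all genes 0.0442% passed (0.0177% higher and 0.0265% lower in D316Y) and 6.5% reached that level. This does not show that the genotypes were alike, and the intervals give the sizes that these fits allow. Within 95% intervals the differences with LPS lay inside -0.41 to 0.57 for all genes but Sirt1, for which the interval ran from -0.92 to 0.71.

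With LPS the levels of the large responders were close. Cd38 averaged 8.69 ± 0.10 log2 CPM in D316Y and 8.78 ± 0.20 in WT (SD, n = 3 each), a difference of -0.09 (95% interval -0.38 to 0.20, limma adjusted p 0.939). The Bst1 difference was -0.03 (-0.32 to 0.26, limma adjusted p 0.987), and the Nampt difference was -0.01 (-0.27 to 0.26, limma adjusted p 0.998). Parp14 was the gene whose D316Y libraries all lay above the WT ones with LPS, by 0.17 (-0.09 to 0.43, limma adjusted p 0.839). Groups that do not overlap were found for 12.5% of all genes with LPS and 8.13% without.

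Without stimulation 2 genes had groups that did not overlap. Nampt was lower in every D316Y library, with a mean of 6.75 ± 0.12 log2 CPM in D316Y and 7.06 ± 0.21 in WT (SD, n = 3 each), a difference of -0.31 (95% interval -0.70 to 0.09, limma adjusted p 0.942). By replicate number the D316Y minus WT differences of Nampt were -0.45, -0.35 and -0.12. Nmnat3 was higher in every D316Y library, 3.81 ± 0.09 in D316Y and 3.57 ± 0.12 in WT, by 0.24 (-0.09 to 0.57, limma adjusted p 0.942). In the authors' deposited table these were also the 2 genes at an unadjusted p under 0.05: Nmnat3 with a log2 fold change of 0.325 (p 0.0209, adjusted p 0.243) and Nampt with -0.229 (p 0.0452, adjusted p 0.294). Such an unadjusted p was given to 16.5% of all genes in the authors' deposited table, and 0.0563% passed, with 0 of the 9 NAD genes among them. With LPS 0 of the 9 passed in the authors' deposited table, where 0.0804% of all genes did, and 0 had an unadjusted p under 0.05. The authors' values come from the same libraries, so they are not a separate test. Without stimulation their sign was opposite to that found here for Bst1 (-0.145) and Parp14 (0.0181). With LPS it was opposite for Bst1 (0.0277) and Sirt1 (0.315, interval -0.374 to 1.00).

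The other unstimulated differences were small beside their intervals. Cd38 was too low to be tested after the filter on low values; its means were -1.63 ± 0.41 log2 CPM in D316Y and -1.02 ± 0.69 in WT (SD, n = 3 each), and the libraries overlapped. Parp14 gave -0.17 (95% interval -0.65 to 0.32, limma adjusted p 0.942) and 0.03 without both replicate 1 libraries. The interferon-stimulated genes had summed levels of 1262, 842 and 1762 CPM in D316Y replicates 1, 2 and 3, against 3129, 1641 and 1668 CPM in WT, so WT replicate 1 was highest. All 10 were lower in D316Y by their means (median -0.69, range -1.02 to -0.57 on the log2 scale, against a median of -0.02 over all genes tested), 0 passed (limma), and 2 had an unadjusted p under 0.05. Without both replicate 1 libraries all 10 were still negative, with a median of -0.44 (-0.65 to -0.28), and 0 had such an unadjusted p. The part of these genes in the Parp14 values was not tested. Nmnat1 gave 0.21 (-0.19 to 0.62), Bst1 0.09 (-0.50 to 0.68), Nadk -0.15 (-0.67 to 0.37), Parp1 -0.14 (-0.77 to 0.48) and Sirt1 -0.16 (-0.78 to 0.45). These intervals come from fits that do not pair libraries by replicate number. By that number the D316Y minus WT differences were -0.18, -0.14 and -0.12 for Nadk and -0.04, -0.21 and -0.18 for Parp1. For Nmnat1 they were 0.05, 0.54 and 0.04, while those of Cd38, Bst1, Sirt1 and Parp14 differed in sign. With the replicate number as a block Nadk, Parp1 and Nmnat1 did not pass (limma adjusted p 0.388, 0.429 and 0.519).

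**Figure D4:**
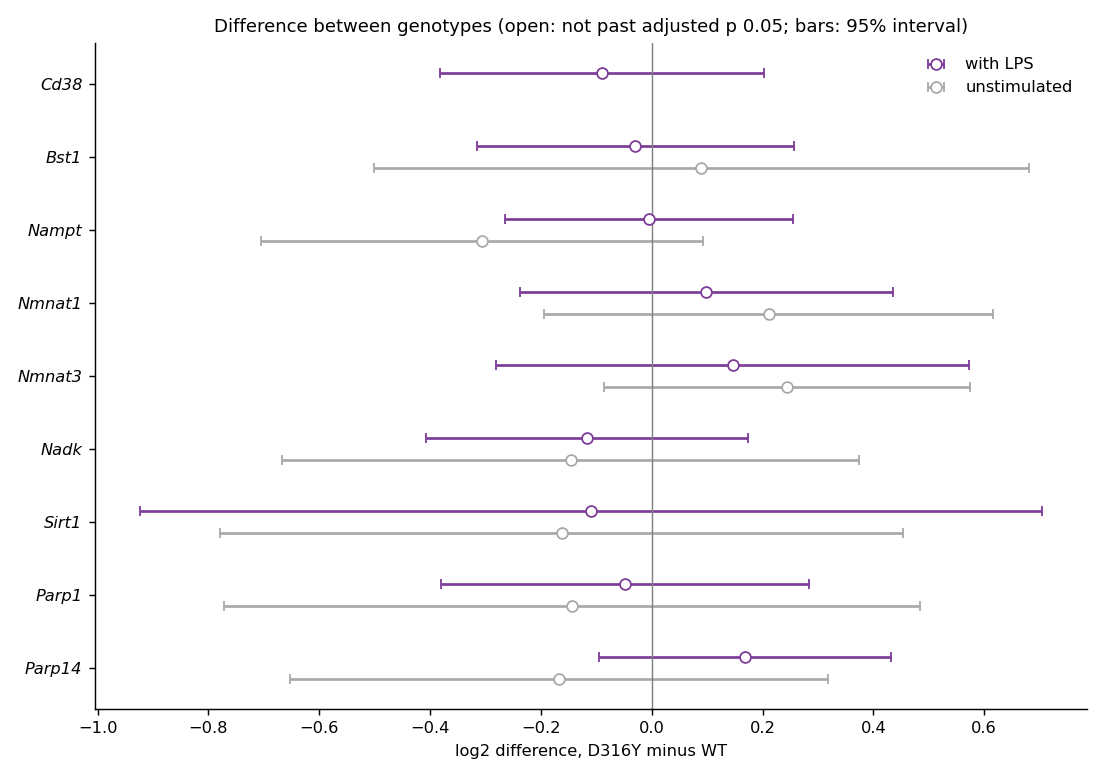
Log2 difference between genotypes (D316Y minus WT) for each NAD gene with LPS and without stimulation, with 95% intervals from limma; Cd38 was not tested without stimulation. All points are open because none passed, and every interval spans 0, with centres from -0.31 (Nampt, unstimulated) to 0.24 (Nmnat3, unstimulated).

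Whether the LPS response itself differed between genotypes was tested as an interaction, the response in D316Y minus that in WT. None of the 9 genes passed (limma), 0 had an unadjusted p under 0.05, and of all genes 0% passed and 2.11% had such an unadjusted p. The largest point estimate among the 9 genes was that of Cd38, 0.52 with a 95% interval of -0.35 to 1.39 (limma adjusted p 0.999), which came to 0.10 without both unstimulated replicate 1 libraries. Leaving out 1 library gave 0.31 (without D316Y unstimulated replicate 1) to 0.92 (without WT unstimulated replicate 2), and none of these passed. The value of 0.92 had an unadjusted p of 0.00681 (limma, adjusted p 0.998). Cd38 drew only 12 to 36 reads in each unstimulated library, so its interaction depends on single libraries. Parp14 gave 0.34 (-0.19 to 0.86) and Nampt 0.30 (-0.13 to 0.73).

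Around these genes stand 56 other genes of NAD metabolism, of which 39 had rows in the tables. With LPS 7 rose and 5 fell of 36 tested in D316Y, and 7 rose and 4 fell of 35 tested in WT (limma). Of all genes 38.4% passed in D316Y and 37.1% in WT. In this list 10 genes passed in both genotypes and in the same direction. The median difference was -0.01 in D316Y and -0.02 in WT, against -0.03 and -0.01 over all genes tested. Under total reads scaling 5 rose and 17 fell in D316Y, and 3 rose and 20 fell in WT, where 49.7% of all genes passed as lower in D316Y and 50.4% in WT. Most of those that rose were PARPs. Of 14 other PARP family genes, 6 rose and 1 fell in each genotype, and these were the same 7 genes: Parp3, Parp8, Parp9, Parp10, Parp11 and Parp12 rose and Parp2 fell. Of all genes 19.4% passed as higher in D316Y and 18.1% in WT, and 19% as lower in each. Scaled by total reads 5 rose and 5 fell in D316Y (8.98% and 49.7% of all genes) and 3 rose and 5 fell in WT (7.97% and 50.4%); Parp12 was not called in either genotype, and Parp9 and Parp10 were not called in WT. Without both unstimulated replicate 1 libraries 6 rose in each genotype, and 2 fell in D316Y and 1 in WT, where 22.2% of all genes passed as higher and 21.7% as lower in D316Y and 21% and 20.9% in WT.

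Parp11, a mono-ADP-ribosyltransferase, had the smallest adjusted p among them: 6.69 ± 0.21 log2 CPM in D316Y with LPS, against 4.71 ± 0.26 without, and 6.46 ± 0.15 in WT with LPS, against 5.06 ± 0.25 without (SD, n = 3 each). It rose 3.95-fold in D316Y (limma adjusted p 1.13e-06) and 2.64-fold in WT (limma adjusted p 3.08e-05). Parp3, which acts in DNA break repair, rose by 1.63 and 1.26, and Parp8 by 1.14 and 0.92. Parp9 and Parp10, which like Parp14 are interferon-inducible, rose by 1.08 and 1.41 in D316Y and by 0.67 and 0.71 in WT. Parp2, a DNA damage-activated polymerase like Parp1, fell by 0.47 in D316Y and by 0.45 in WT.

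Outside the PARPs few passed on the deposited scale. Of 6 other sirtuins only Sirt6, a chromatin deacylase, passed, with a rise of 0.84 in D316Y (limma adjusted p 0.000362) and 0.83 in WT (limma adjusted p 0.000452); scaled by total reads its 0.33 and 0.32 did not pass, while Sirt2, Sirt3 and Sirt5 passed as lower in both genotypes. Enpp1, an ecto-enzyme that hydrolyses nucleotides, fell by 1.55 in D316Y and by 1.85 in WT (limma adjusted p 0.000917 and 0.000244). Nnt, the mitochondrial transhydrogenase, fell by 0.44 in each (limma adjusted p 0.0450 and 0.0457). It did not pass in either genotype without both unstimulated replicate 1 libraries, nor in WT with median of ratios scaling (-0.42, limma adjusted p 0.0513), and scaled by total reads it fell by 0.95 in each and passed. Named after their values were seen, Haao and Nadk2 passed in D316Y only and Macrod1 in WT only, all lower. The interaction passed for none of the 3; Haao was too low to be tested in WT, and in D316Y it fell below the filter on low values without both unstimulated replicate 1 libraries. None of the 3 genes of the Preiss-Handler and riboside routes, Naprt, Nadsyn1 and Nmrk1, passed in either genotype, though scaled by total reads Nadsyn1 and Nmrk1 passed as lower in both and Naprt in WT.

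**Figure D5:**
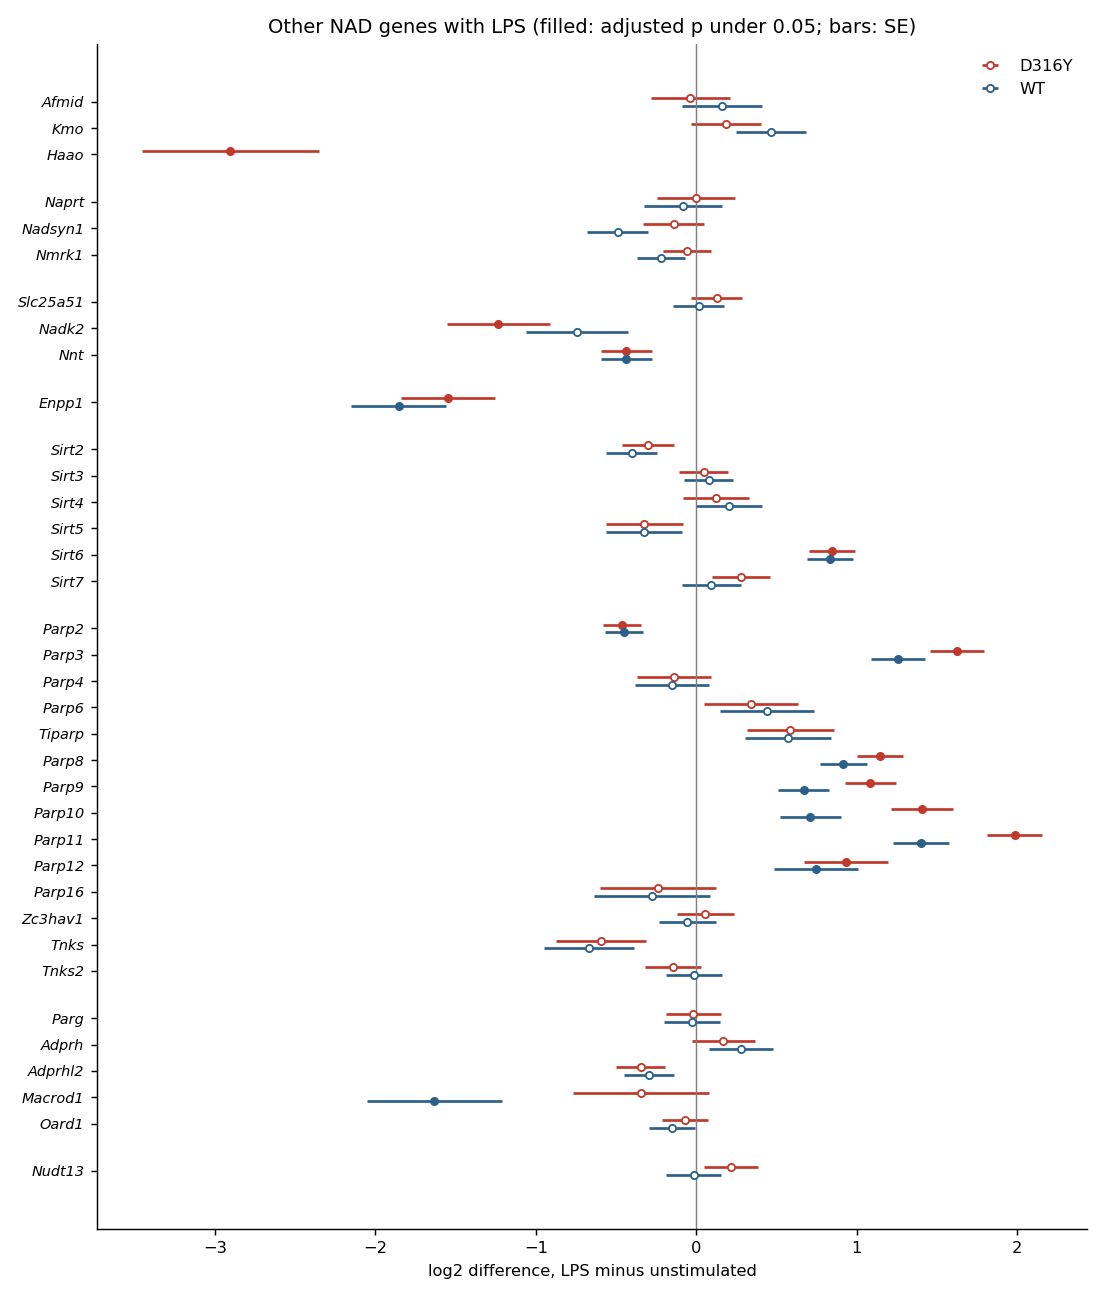
Log2 difference with LPS (LPS minus unstimulated) of the other NAD genes tested in D316Y and WT, grouped by role from top to bottom, with SE bars; filled points passed an adjusted p of 0.05 in limma. The PARP block holds 6 of the 7 genes that rose in each genotype, up to 1.98 for Parp11 in D316Y.

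Between genotypes 0 of these genes passed (limma), of 36 tested without stimulation and 34 with LPS, and 2 had an unadjusted p under 0.05 in each, where 2.92% of all genes did without stimulation and 6.5% with LPS. Without stimulation these were Parp10, lower in D316Y by 0.49 on the log2 scale (unadjusted p 0.0375, limma adjusted p 0.942; 0.29 lower without both replicate 1 libraries), and Afmid, higher by 0.59 (unadjusted p 0.0427, limma adjusted p 0.942). With LPS they were Nudt13, higher by 0.38 (unadjusted p 0.0253, limma adjusted p 0.693), and Nadsyn1, higher by 0.46 (unadjusted p 0.0456, limma adjusted p 0.752).

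The genes most like Cd38, Bst1 and Nampt across the 12 libraries were found by the root-mean-square difference of centred log2 CPM profiles among 9669 genes. This likeness is dominated by the LPS difference that all of them share and says nothing of shared function or control. For Cd38 they were Il23r (0.50), Saa2 (0.57) and Nos2 (0.76), the inducible nitric oxide synthase; Il23r and Saa2 had 0 reads in the unstimulated libraries, where their level is the floor of the scale. For Bst1 they were Tma16 (0.23), Sod2 (0.24), the mitochondrial superoxide dismutase, and Ass1 (0.26), the argininosuccinate synthase. For Nampt they were Coa5 (0.06), Nfkbie (0.07), an inhibitor of NF-kB, and H2-M3 (0.09).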

How the data were processed

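Per the submitters' processing notes, the tools include STAR 2.5.1a, featureCounts 1.4.6-p5, edgeR, limma, Subread and bcl2fastq. The genome build and the strand setting of counting were not given in the sources used here. The authors deposited 2 tables with the same log2 CPM values for the 12 libraries, plus their own log2 fold change, p-value and adjusted p-value for each genotype comparison, per the file headers. After 52 repeated identifiers were taken once, 12441 genes remained, all found in GENCODE M21 (GRCm38), which gave positions and exonic lengths. Each log2 value equals the log2 of a gene's reads, with 0.5 added, per M of effective library; below 200 reads, 100% of values came out whole to within 0.01, so reads per gene were recovered.

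Comparisons used limma 3.58.1 in R 4.3.3 on the deposited log2 values (eBayes with trend and robust, two-sided, Benjamini-Hochberg over all genes tested, threshold 0.05). They covered genes whose group mean reached 0 log2 CPM in a compared group. The fits were tested on simulated data in which libraries varied independently. That test therefore does not cover deviations shared by same-numbered libraries. Genotype comparisons used 6 libraries; LPS comparisons and the interaction used 1 fit of all 12. All 10 genes are named. Of the other NAD genes, the plan was to name those with the smallest adjusted p, and further genes are named beside them. The genes, lists and motifs were chosen with earlier results of these data known. Deviations of same-numbered unstimulated D316Y and WT libraries correlated at 0.606, 0.527 and 0.154, so their numbers were treated as pairs in an alternative fit; the labels do not say what they share. Python 3.11.15 with pandas 2.3.3, numpy 2.4.6 and matplotlib 3.10.9 made the tables and figures.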

Additional observations from a re-analysis of the deposited data

How the results depend on the processing

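The count of NAD genes passing with LPS was 7 in D316Y and 6 in WT, and over the planned and added alternatives it stayed between 5 and 7 in each; leaving out 1 library gave 5 to 7 in D316Y and 5 to 6 in WT. The genotype comparisons and the interaction gave 0 under every alternative run. Planned fits with edgeR and DESeq2 on the recovered reads were not run, though total reads scaling and voom weights used those reads. Total reads scaling and voom weights were added after seeing the data. Total reads scaling gave 3 higher and 3 lower in each genotype; beside the values in the report it turned Nadk to -0.0215 in D316Y and -0.045 in WT and Parp14 to -0.0404 in WT with LPS, and Bst1 to 0.0108 and Nampt to 0.0352 between genotypes with LPS. Calls over all genes became 6922 in place of 4524 in D316Y and 6807 in place of 4328 in WT. The size of that shift is set by the effective library sizes; which scaling is nearer the RNA per cell was not tested.

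Without both unstimulated replicate 1 libraries, the unstimulated genotype difference was -0.17 for Bst1 and 0.0263 for Parp14, the Bst1 interaction was 0.14, and 10 genes in all passed without stimulation, against 1 with all 6 libraries. With the replicate number as a block 6 genes passed there and none of the NAD genes did (Nampt -0.31, limma adjusted p 0.173; Nmnat3 0.24, limma adjusted p 0.304). Without the filter 0 passed there, and 4 did in the 12-library fit, or 2 with voom weights. Between genotypes with LPS 5 genes passed, and 3 did under total reads scaling or with voom weights in the 12-library fit. In the other comparisons same-numbered libraries did not all correlate (-0.211 to 0.34); the block changed 1 call there, Nadk with LPS in WT (0.46, limma adjusted p 0.0320), and took the WT count to 7.

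Some small differences changed sign when a library was left out. For LPS in WT it was Nmnat3 from -0.213 to 0.146. For D316Y against WT without stimulation they were Bst1 from -0.133 to 0.293, Parp14 from -0.382 to 0.0148, Nadk from -0.299 to 0.0222, Parp1 from -0.411 to 0.0723. For D316Y against WT with LPS they were Nampt from -0.0683 to 0.0524, Parp1 from -0.194 to 0.0558, Sirt1 from -0.435 to 0.0258, Bst1 from -0.13 to 0.073, Nmnat3 from -0.0736 to 0.286. For the interaction they were Sirt1 from -0.273 to 0.239, Nadk from -0.139 to 0.182, Nmnat3 from -0.318 to 0.0413, Parp1 from -0.121 to 0.363, Bst1 from -0.323 to 0.104. None of these passed in any such fit. Over all alternatives 644 results for individual genes kept side and direction, 15 lost a call, 10 gained 1 and 37 changed sign. Depth limits Cd38 at rest (12 to 36 reads) and Sirt1 (27 to 109 reads).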
